A study of Mus musculus with 30 samples.

Results

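CHD4 peak lists were compared between mouse embryonic stem cells with CTCF and the same cells after 12 h of CTCF degradation, across chromosomes 1 to 19 and X. Overlapping peaks of the 4 CHD4 lists were joined into 196749 regions. A region was called 0 h only when it held a peak in both lists of untreated cells and in neither list at 12 h, and 12 h only in the reverse case. There were 11188 regions of the first kind (5.69% of all regions) and 3983 of the second (2.02%). A further 47105 regions (23.9%) held a peak in all 4 lists, and the others held peaks in mixed or single lists.

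The cells are E14 mouse embryonic stem cells of the genotype CTCF AID and biotin-CHD4: CTCF carries an auxin-inducible degron, and CHD4 a biotin tag through which its chromatin was captured. They grew in serum-free medium with leukemia inhibitory factor and the inhibitors PD0325901 and CHIR99021. The 0 h group (2 libraries) had no IAA, the auxin indole-3-acetic acid that sends degron-tagged proteins to the proteasome, and the 12 h group (2 libraries) had IAA for 12 h. CTCF (1 library at each time) and SMC1A at 0 h (1 library) were mapped in CTCF AID cells without a biotin tag. The remodelers CHD8, SMARCA4 and SMARCA5 (2 libraries at each time) were mapped in CTCF AID cells that carried biotin-CHD8, biotin-SMARCA4 or biotin-SMARCA5. All groups share the degron, no group lacks it, and the labels name no group with IAA but without the degron, so effects of IAA itself cannot be told apart from CTCF loss. The labels do not say whether replicates were separate cultures, so p-values measure the spread between these libraries.

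CHD4 is the ATPase of the NuRD complex, which slides nucleosomes and carries histone deacetylases. It also binds ADNP and HP1 in the complex called ChAHP, which is known to occupy short interspersed repeats. CTCF, which has a row of zinc fingers, recognises a long DNA motif and halts cohesin, the ring complex with the subunit SMC1A. In rodents, copies of the B2 repeat are known to have spread sequences like the CTCF motif through the genome.

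The 0 h CTCF list held 29926 peaks on these chromosomes and the 12 h list 2247. CHD4 contributed 111934 peaks in 0 h replicate 1, 187275 in 0 h replicate 2, 104991 in 12 h replicate 1 and 159896 in 12 h replicate 2. Fold enrichments and −log10 p-values come from the authors' peak caller and serve below to describe and rank the peaks of 1 list. No read counts are given, so depth is unknown, and a region without a listed peak may hold signal under the authors' threshold.

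At each time, replicate 1 was a list of wide peaks and replicate 2 a longer list of narrow ones. The median width was 433 bp in 0 h replicate 1 and 119 bp in 0 h replicate 2, against 475 bp in 12 h replicate 1 and 94 bp in 12 h replicate 2. Peaks under 150 bp made up 59.9% and 70.2% of the replicate 2 lists and 0% of the replicate 1 lists. Width therefore separated the replicate numbers, not the times. A wide peak often held several narrow ones: 27.6% of the peaks of 0 h replicate 1 and 28.1% of those of 12 h replicate 1 overlapped at least 2 peaks of their partner list. Because of this, regions joined over all lists, not single peaks, were counted.

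**Figure D1:**
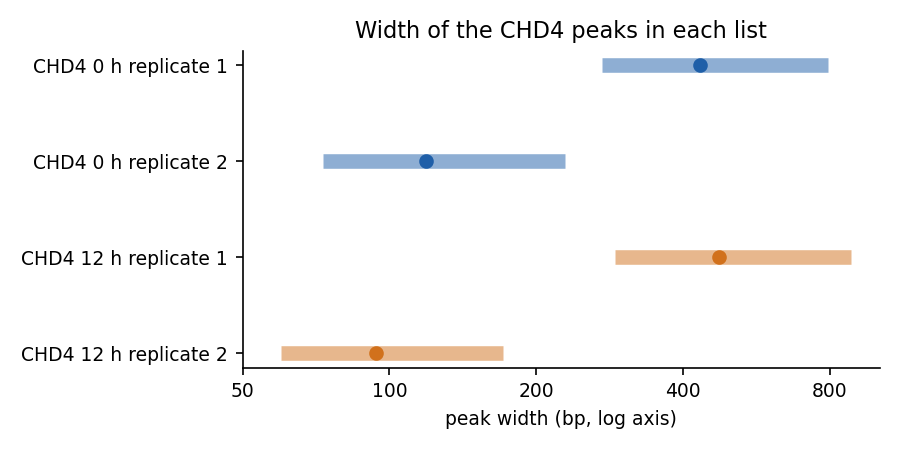
Peak width in bp (log axis) in each CHD4 list, as the median (point) and the quartiles (bar), blue at 0 h and orange at 12 h. The replicate 1 lists have medians of 433 and 475 bp, the replicate 2 lists of 119 and 94 bp.

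The 0 h only regions are sorted here into 3 kinds, by overlap with a CTCF peak and by DNA at the summit. They are regions on a CTCF peak, regions off any CTCF peak with a sequence like the CTCF motif, and regions with neither. Of the first kind, 48.3% also held a sequence like that motif. The named regions of the first 2 kinds whose window held a motif match are printed here to show that stretch. Not all named regions held one: on CTCF peaks the windows in Zfp82 and Rasa2, and far from CTCF the window in Igf1r, had no match and are not printed, and the window nearest Smad2 is not shown. Each run is 5′ to 3′ from RefSeq GRCm38.p6, with capitals for the 19 bases that scored best against a model of the CTCF motif learnt from the 0 h CTCF list. The most frequent letters of that model read CCACCAGGGGGCGCTAGAG.
Ppp2ca intron, on a CTCF peak, 0 h only, chr11:52120580-52120638, minus strand: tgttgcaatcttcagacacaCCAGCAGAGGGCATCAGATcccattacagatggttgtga
Intergenic nearest Tnfrsf21, on a CTCF peak, 0 h only, chr17:42966407-42966465, plus strand: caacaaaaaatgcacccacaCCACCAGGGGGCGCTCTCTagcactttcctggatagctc
Intergenic nearest Taf5, over 10 kb from CTCF, 0 h only, chr19:47066025-47066083, minus strand: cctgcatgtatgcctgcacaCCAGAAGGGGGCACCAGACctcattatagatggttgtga
Intergenic nearest Bicdl1, over 10 kb from CTCF, 0 h only, chr5:115776492-115776550, minus strand: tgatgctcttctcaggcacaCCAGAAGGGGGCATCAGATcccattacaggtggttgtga
Trmt1l intron, over 10 kb from CTCF, 0 h only, chr1:151443379-151443437, plus strand: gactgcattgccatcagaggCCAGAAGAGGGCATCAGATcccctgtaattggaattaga
Ppargc1a intron, over 10 kb from CTCF, 0 h only, chr5:51565822-51565880, plus strand: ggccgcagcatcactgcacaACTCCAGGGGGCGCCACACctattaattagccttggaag

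Regions that overlapped a 0 h CTCF peak lost CHD4 peaks more often than regions at any distance from one. Of the 11188 regions with CHD4 at 0 h only, 3632 (32.5%) overlapped a 0 h CTCF peak by at least 1 bp, against 8.63% of all regions and 12.5% of the regions in all 4 lists. Of the 3983 regions with CHD4 at 12 h only, 43 (1.08%) did. Taken the other way, 21.4% of all CHD4 regions on a CTCF peak were 0 h only and 0.253% were 12 h only.

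Beyond the CTCF peak itself, distance made little difference. Regions 1 to 200 bp from the nearest CTCF peak were 0 h only in 3.10% of cases and 12 h only in 1.84%. In the 9 further distance classes, up to those over 100 kb away, the 0 h only share ran from 2.97% to 4.59% and the 12 h only share from 1.85% to 2.73%. Within the 0 h only regions on CTCF peaks, the CHD4 summit lay close to the CTCF summit: 38.9% were within 50 bp, against 16.3% of the regions on CTCF peaks in all 4 lists, which are wider.

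**Figure D2:**
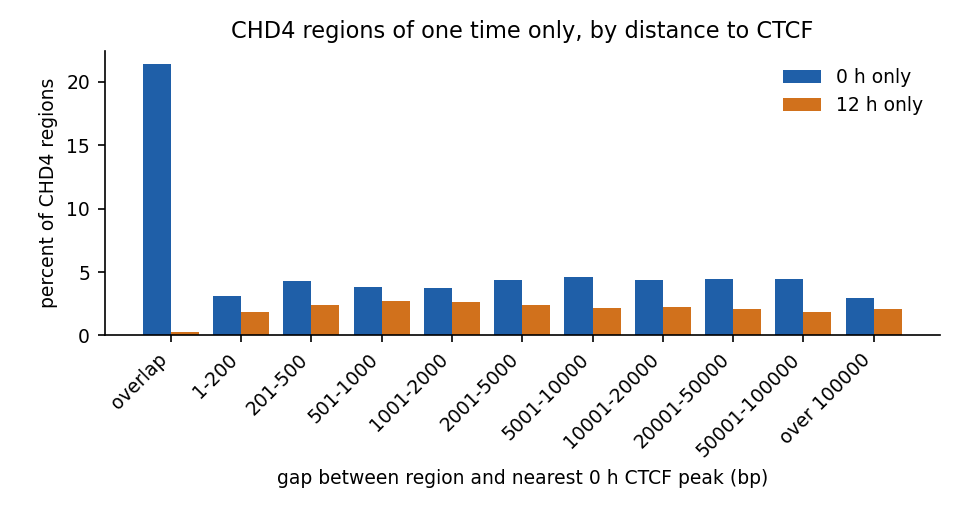
Percent of the CHD4 regions in each class of distance to the nearest 0 h CTCF peak (bp) that are 0 h only (blue bars) or 12 h only (orange bars). The 0 h only share is 21.4% at overlap and between 2.97% and 4.59% in every class of regions off a CTCF peak.

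The 2 libraries of each time were compared directly through the share of peaks on a CTCF peak. It was 12.7% and 8.25% in the 0 h replicates and 7.07% and 4.66% in the 12 h replicates. Both 12 h lists lay below both 0 h lists, and each replicate number fell. The mean fell from 10.5% ± 3.17 (SD, n = 2) to 5.86% ± 1.70 (SD, n = 2), a change of −4.64 percentage points. The exact two-sided permutation p was 0.333, the smallest that 2 libraries against 2 allow (0.667 after Benjamini-Hochberg adjustment over the 2 list shares tested).

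The regions that kept a CHD4 peak on CTCF also moved down in rank. Among the 47105 regions in all 4 lists, re-ranked within each list by −log10 p, those on a CTCF peak had a median percentile of 69.6 and 72.1 in the 0 h lists and of 59.7 and 59.0 in the 12 h lists. The other shared regions stayed between 46.4 and 48.9 in the 4 lists. The lists did not overlap between the times at CTCF peaks. Over all shared regions ranks have a fixed mean, so a fall of some goes with a rise of others.

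On CTCF, regions were lost less often at promoters, and loss did not rise or fall steadily with the strength of the CTCF peak. Of the regions on a CTCF peak with CHD4 in both 0 h lists, 32.4% had a peak in neither 12 h list. Within 1 kb of a transcription start site this share was 7.31% (222 of 3038), and elsewhere 41.7% (3410 of 8174). Off CTCF peaks, loss was also less frequent near start sites. By distance class the share ran from 4.40% to 7.20% there and from 10.3% to 17.6% elsewhere. CHD4 rank was not held equal in these splits. On CTCF peaks, the share was 18.4% where CTCF kept a listed peak at 12 h and 34.4% where it did not. It was 28.9% with a 0 h SMC1A peak against 35.7% without. Over 10 equal classes of CTCF peaks by strength, it was 23.4% in the weakest, 22.2% in the strongest and between 32.9% and 38.6% in the 8 classes between them.

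The 5 regions of this kind with the highest CHD4 rank were strong peaks at 0 h. The region in an intron of Ppp2ca, which encodes the catalytic subunit of protein phosphatase 2A, had an authors' fold enrichment of 22.9 and 19.2 in the 0 h lists. The region in an intron of Zfp82, a zinc-finger gene, had 16.5 and 23.7. The region 50102 bp from the start site of Tnfrsf21, a death-domain receptor, had 21.2 and 22.7. A region in an intron of Rasa2, a Ras GTPase-activating protein, had 22.3 and 16.7, and an intergenic region on chromosome 18 nearest Smad2 had 18.6 and 25.8. None of the 5 overlapped a 0 h SMC1A peak or a 12 h CTCF peak. The 5 are not typical in this. Of all 3632 CHD4 0 h only regions on CTCF peaks, 1583 (43.6%) overlapped a 0 h SMC1A peak and 263 a 12 h CTCF peak. The CTCF peaks of the 5 ranked between percentile 7.37 (Rasa2) and 60.8 (Smad2) of the CTCF list.

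Most of the 0 h only regions, 7556 (67.5%), did not overlap a CTCF peak, and their DNA set many of them apart. The summit with 100 bp to either side held a match to the CTCF motif model in 2010 of them (26.6%), against 4.96% of all CHD4 regions off CTCF peaks, 3.44% of those in all 4 lists and 1.65% of those at 12 h only. As a scale, 71.0% of the 0 h CTCF summits on the chromosomes not used to learn the model held a match. From 1 to 10000 bp from a CTCF peak, 29.4% of 0 h only regions (878 of 2986) held a match, against 5.54% of all regions there. Over 10 kb from any of them, 24.8% (1132 of 4570) held one, against 4.59% of all regions there. Among the 383 with a mean CHD4 rank over percentile 80, 65.8% held one, against 6.67% of all such regions.

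Most of these matches are in windows with repeats around the summit. The reference is soft-masked, meaning that repeats are written in small letters, and a window counts as masked here when over 50% of the bases within 50 bp of the summit are. The match may lie up to 100 bp from the summit, and its own masking was not scored. Of the 2010 matches in 0 h only regions off CTCF peaks, 88.4% were in masked windows, against 71.0% of the matches in all CHD4 regions off CTCF peaks and 58.5% of those in the regions off CTCF peaks in all 4 lists. Of the 0 h only regions over 10 kb from CTCF, 45.4% were masked, and 84.6% of the 383 of high rank, against 26.7% of all regions at that distance and 28.4% of the 12 h only regions there. No repeat annotation was used, and the family of these repeats was not assigned.

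A single 9-letter word found without the CTCF model marks the same regions. Over odd-numbered chromosomes, CAGAAGAGG or its reverse complement CCTCTTCTG was the word that differed most in share between 0 h only regions over 10 kb from CTCF (23.9%) and all regions there (4.56%). On the even-numbered chromosomes and X, which were not used to find it, it was in 22.6% of such 0 h only windows (487 of 2158), in 52.7% of those of high rank (97 of 184), in 4.46% of all windows at that distance and in 2.61% of the 12 h only ones. Of the 1063 far 0 h only windows with the word on all chromosomes, 836 (78.6%) also held a match to the CTCF model, so the word and the model are not separate evidence. The most frequent letter at each position around it in 486 of those 0 h only windows is printed to show how far the likeness extends beyond the word in capitals, which is a consensus and not a genomic site.
Consensus around the word: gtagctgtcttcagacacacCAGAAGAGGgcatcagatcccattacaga
On average 84.9% of the windows share the letter at a position, and at the most variable position 47.9% do. Placed without gaps on the 49 letters of this consensus, the printed Ppp2ca sequence was identical at 91.8% of positions, Bicdl1 at 83.7%, Taf5 at 71.4% and Trmt1l at 59.2%. The Ppargc1a and Tnfrsf21 sequences, at 44.9% and 40.8%, were the least alike of the 6.

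Regions with a motif match lost their CHD4 peak more often than regions without one, on and off CTCF peaks. Of regions off CTCF peaks with CHD4 in both 0 h lists, 48.8% of the 4122 with a match had a peak in neither 12 h list, against 9.98% of the 55578 without a match. Without 0 h replicate 1 these shares were 60.4% and 41.6%, so the contrast was then much smaller. On CTCF peaks, the share was 49.7% with a match and 24.4% without. In windows that are not masked, regions with a match were lost in 45.6% of cases on CTCF peaks and in 23.0% off them, and in masked windows in 57.4% and 57.2%. Off CTCF peaks, the shares without a match were 14.0% in masked windows and 8.80% in the others. The share by model score was 9.45% below 0, 9.71% from 0 to 4, 20.01% from 4 to 8, 48.1% from 8 to 12, 26.7% from 12 to 16 and 67.0% above 16, so it did not climb at every step.

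Regions on CTCF and motif regions off CTCF were lost more often than regions with neither at every level of CHD4 rank. In the weakest of 10 equal rank classes of the regions in both 0 h lists, a peak was lost from 62.2% of motif regions off CTCF, 67.8% of regions on CTCF and 30.2% of regions with neither. In the strongest class, the shares were 19.3%, 7.89% and 0.809%. From the third class upward, motif regions off CTCF were lost more often than regions on a CTCF peak. The latter include regions without a match. Among regions with a match, over all rank classes, 49.7% on CTCF peaks and 48.8% off them were lost. Regions with neither made up 5546 (49.6%) of all 0 h only regions, and 4948 of them (89.2%) were in the 5 weaker rank classes.

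**Figure D3:**
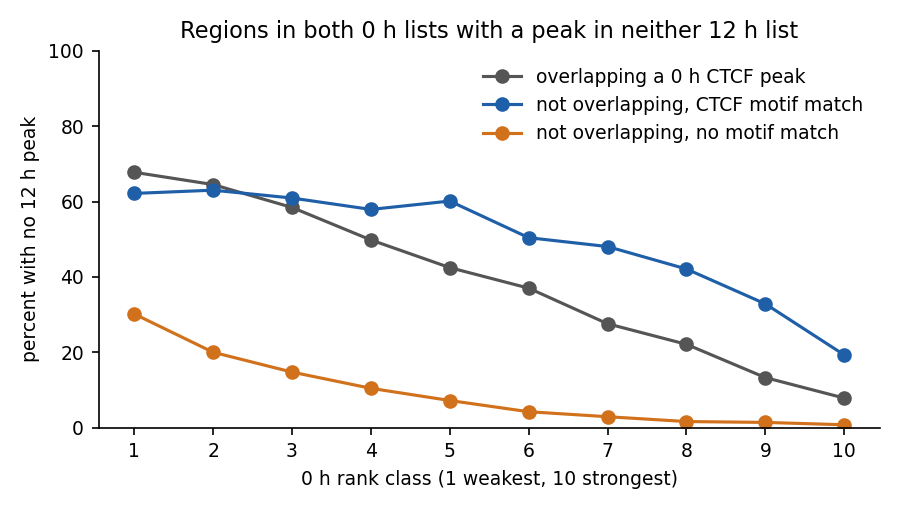
Percent of the regions in both 0 h lists that have a peak in neither 12 h list (0 to 100), in 10 equal classes by mean 0 h rank, for regions on a CTCF peak (grey), off it with a motif match (blue) and off it without (orange). The orange line falls to 0.809% in the strongest class, where the blue line is at 19.3%.

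The same shift appeared in the shares of peaks per list. These are the lists that chose the 0 h only regions, so the shares are not separate evidence. Of the CHD4 peaks over 10 kb from CTCF, 6.61% and 3.60% had a motif match in the 0 h lists (3995 and 3576 peaks), and 2.32% and 2.03% in the 12 h lists (1362 and 1778 peaks). Both 12 h lists lay below both 0 h lists, with means of 5.10% ± 2.13 and 2.17% ± 0.205 (SD, n = 2 each) and an exact two-sided permutation p of 0.333, the smallest possible (0.667 adjusted over 4 list shares). Soft-masked peaks without a match showed no such separation of the times. They were 23.8% and 21.3% of the far peaks without a match at 0 h and 21.7% and 21.9% at 12 h. The lists of the 2 times overlap here (exact permutation p = 1), but 2 libraries against 2 cannot show a lack of change. Whether reads that map to several places were kept is not given in the sources used here, and its part in the repeat regions was not tested.

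**Figure D4:**
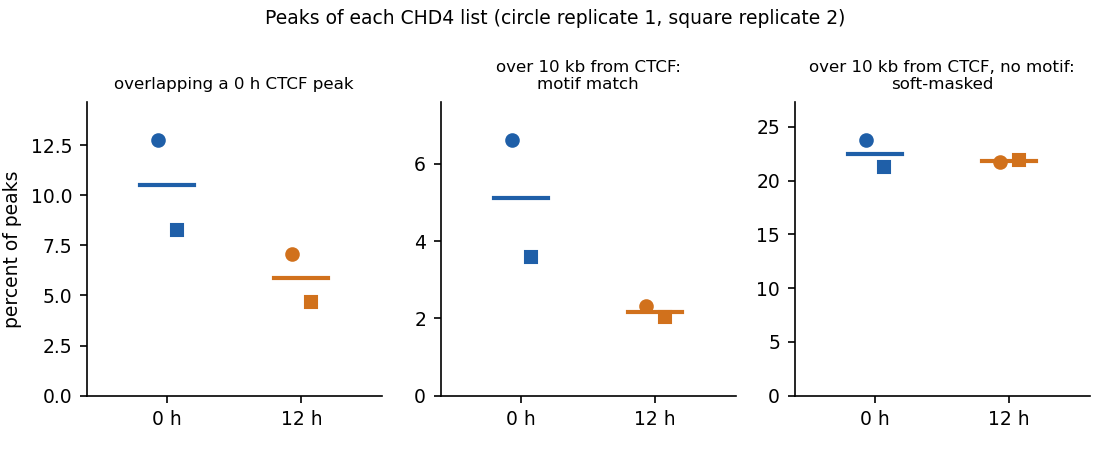
Percent of the peaks of each CHD4 list (circle replicate 1, square replicate 2, line the mean of 2) that overlap a 0 h CTCF peak (left), that hold a motif match among peaks over 10 kb from CTCF (middle), and that are soft-masked among those far peaks without a match (right). The left and middle values are lower in both 12 h lists, and the right values overlap.

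The 5 strongest 0 h only regions over 10 kb from CTCF had authors' fold enrichments from 13.9 to 26.6 in the 0 h lists and no listed peak at 12 h. The strongest lies 1733 bp from the start site of Taf5, a subunit of the general transcription factor TFIID, and 52780 bp from the nearest CTCF peak, with folds of 26.6 and 15.8. A region in an intron of Igf1r, the receptor of insulin-like growth factor 1, had folds of 21.8 and 15.9 and no motif match in its window, although the window is masked. The intergenic region nearest Bicdl1 had 21.5 and 14.5, the Trmt1l intron 22.0 and 13.9, and the intron of Ppargc1a, a coactivator of mitochondrial genes, 24.3 and 14.2. The last lies 342707 bp from the nearest CTCF peak, and 4 of the 5 regions hold a motif match, as printed above. The Trmt1l region alone of the 5 overlapped a 0 h SMC1A peak, as did 0.656% of all 0 h only regions over 10 kb from CTCF.

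The 12 h only regions showed none of these features at a raised level. Their shares of motif matches (1.78%) and of the word (2.33% on the chromosomes where it was not sought) were below those of all regions (7.42% and 5.43%), and 26.2% were masked, close to 25.2% of all. They were also weaker: the median of their mean percentile was 35.3 off CTCF, against 57.7 for 0 h only regions on CTCF and 42.6 for those over 10 kb away. Their strongest members off CTCF reached folds of 5.86 and 8.95 near Slc1a4, a neutral amino acid transporter, 7.92 and 6.35 near Gm10382, and 8.82 and 5.998 in Paqr3. The introns of Rab12, a small GTPase, and Anxa9, an annexin, held regions with folds of 5.93 and 6.34 and of 7.45 and 5.71.

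The 43 regions at 12 h only on a CTCF peak were few and mostly weak. The strongest was in an intron of Akap7, an anchoring protein for protein kinase A, with folds of 7.47 and 6.70 at 12 h. Its window holds a motif match and is printed for comparison with the lost regions, with the same use of capitals.
Akap7 intron, on a CTCF peak, 12 h only, chr10:25219320-25219378, minus strand: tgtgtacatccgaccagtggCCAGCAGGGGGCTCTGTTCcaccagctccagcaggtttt
The next were near Thpo, which encodes thrombopoietin (4.78 and 5.14), and in introns of Gnas, the imprinted gene of a G-protein subunit (5.87 and 5.40), Cspg4 (4.02 and 5.29) and Cyp2w1 (4.11 and 4.83). None of these 4 windows held a match.

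By gene annotation, the regions of both changing classes were less often at promoters than all regions, with CHD4 rank not held equal. Within 1 kb of a transcription start site (GENCODE M21 basic) were 7.79% of the 0 h only and 9.01% of the 12 h only regions, against 28.7% of regions in all 4 lists and 14.4% of all regions. The last share is raised by the regions in all 4 lists, which supply 13538 of the 28252 regions near a start site. A low promoter share is thus not particular to regions that change between the times. Introns held 48.0% and 44.1%, against 41.3% of all regions, and intergenic sequence 39.3% and 40.2%, against 38.9%. Coding exons held 2.55% and 3.51%, and untranslated regions 1.61% and 2.41%, close to the 2.91% and 1.80% of all regions. The 0 h only and 12 h only regions thus had a like spread over gene parts while they differed at CTCF.

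The share of a list's peaks with a summit within 1 kb of a start site was 18.2% and 21.6% in the 0 h lists and 19.2% and 24.2% in the 12 h lists. The lists of the 2 times overlap, and the narrow list is the higher at each time. The change of 1.77 percentage points had an exact two-sided permutation p of 0.667, and it turned to −0.730 without 12 h replicate 2.

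The changing regions were spread over many genes. Of 21728 protein-coding genes, 6729 (31.0%) were the nearest by start site to at least 1 region at 0 h only, 3009 (13.8%) to at least 1 at 12 h only, and 1682 to both. Only 223 genes had 5 or more 0 h only regions and 16 had 5 or more 12 h only regions. By chromosome, the 0 h only share ran from 4.59% (X) to 6.31% (5), and the 12 h only share from 1.74% (10) to 2.42% (X).

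The genes with the most 0 h only regions had many CHD4 regions in all. Zfp64, a zinc-finger gene, was nearest to 18 (8 of them on CTCF) out of 118 regions, or 15.3%. Tbx3, a T-box factor of naive pluripotency, had 16 of 180 (8 on CTCF), and Dnah8, an axonemal dynein, 13 of 50 (11 on CTCF), which is 26.0% and mostly at CTCF. 1810013L24Rik had 12 of 188 and Zfhx3, a homeobox factor, 12 of 184, shares of 6.38% and 6.52% near the 5.69% of all regions.

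The most 12 h only regions fell to Jarid2, a partner of Polycomb complex 2, Smad7, an inhibitor of TGF-β signalling, and Sulf2, a sulfatase of heparan sulfate, with 7 each. These were 4.24% of 165 regions for Jarid2, 3.85% of 182 for Smad7 and 4.76% of 147 for Sulf2, against 2.02% of all regions. Jarid2 also had 8 at 0 h only (4.85%) and Sulf2 6 (4.08%), below the 5.69% of all regions, while Smad7 had 0. With 6 each followed 1810013L24Rik, Ninj2, Sall4, Sorl1 and Tanc1, tied for the last 2 of 5 places. Sall4, a zinc-finger factor that binds NuRD, had 6 at 12 h only and 2 at 0 h only among 57 regions, and it lies on chromosome 2 (chr2:168748332-168767943) near Zfp64 (chr2:168893331-168955587), the gene with the most 0 h only regions.

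Gene lists were counted over gene bodies with 10 kb to either side. Of all protein-coding genes, 31.3% had a 0 h only region there and 13.7% a 12 h only region, and 5.76% and 2.04% of the regions in such spans were of those kinds. Longer genes with more regions hold more of both, so the share of regions is given beside the count of genes.

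Of 21 NuRD and CHD4 partner genes, 10 had a 0 h only and 7 a 12 h only region, or 5.78% and 2.74% of their 329 regions. Gatad2b, a p66 subunit of NuRD, had 3 at 0 h only and 1 at 12 h only. Cbx5, which encodes HP1α, had 3 and 0, and Sall4 had 2 and 1 within this span. Of 17 CTCF and cohesin genes, 10 had a 0 h only and 2 a 12 h only region (8.38% and 1.12% of 179 regions). Ctcfl, the germline paralog of CTCF, had 3 at 0 h only, 2 of them on CTCF. Wapl, which releases cohesin from DNA, had 2 and 1, and Smc3 and Cdca5, a core subunit and the cohesin protector sororin, had 2 and 0 each.

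Of 23 pluripotency genes, 13 had a 0 h only and 8 a 12 h only region (4.17% and 2.55% of 432 regions). Tet2, a 5-methylcytosine oxidase, had 3 and 1. Klf2, a naive pluripotency factor, had 0 at 0 h only and 3 at 12 h only among 25 regions. Nanog, Tbx3 and Zfp42 had 2 and 0 each and Lefty1 had 0 and 2. Of 28 lineage regulators, which are silent or low in stem cells, 12 had a 0 h only region and 0 a 12 h only region (6.09% and 0% of 279 regions). Hand1, a heart and trophoblast factor, had 3 at 0 h only, and Eomes, Pax6 and Olig2 had 2 each.

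Of 20 imprinted genes, 5 had a 0 h only and 4 a 12 h only region (3.47% and 1.98% of 202 regions), with 3 at 0 h only in Grb10. Of 39 Hox genes, 20 and 8 had them (5.36% and 1.72% of 466 regions). Hoxa3 and Hoxd3 had 2 and 1 each, and Hoxa4, Hoxd10 and Hoxd11 2 and 0. Of 82 ribosomal protein genes, 31 and 13 had them (4.64% and 1.90% of 841 regions). Rps15 had 1 and 2, Rps24 2 and 1, and Rpl3l and Rps14 3 and 0. Of 10 genes of the 2-cell stage, 1 had a 0 h only region and 0 a 12 h only region, or 1 of 5 CHD4 regions in all. Of 56 clustered protocadherin genes, 21 and 31 had them (5.87% and 2.64%), but these genes overlap and share regions: the 4 at 0 h only in Pcdhga1 are counted again in its neighbours. The shares of regions in most lists lay close to those of all genes, and no test of the lists was made.

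The other remodelers give an independent look at the same regions, since their lists were not used to choose them. CHD8 is a chromodomain remodeler known to bind CTCF, SMARCA4 is the ATPase of the BAF complex, and SMARCA5 (SNF2H) is the ATPase of ISWI complexes. Relative occupancy is the log2 odds that a region holds a peak of the other remodeler, relative to the regions in all 4 CHD4 lists, with 0.5 added to each count, so that a longer list at one time cancels in part.

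At the CHD4 0 h only regions on CTCF peaks, the other remodelers fell on average. CHD8 had a peak in 21.8% and 14.9% of them at 0 h and in 4.87% and 3.19% at 12 h. SMARCA5 had one in 14.9% and 23.3% at 0 h and in 6.47% and 5.37% at 12 h. SMARCA4 had one in 28.6% and 14.4% at 0 h and in 11.8% and 18.4% at 12 h, where the times overlap on this plain scale. On the relative scale every 12 h library lay below both 0 h libraries of its remodeler: CHD8 changed by −2.57, SMARCA4 by −1.17 and SMARCA5 by −2.15 log2 odds.

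The mean change over the 3 remodelers was −1.96 log2 odds. The exact stratified permutation p was 0.00926, the smallest that the joint relabellings of the 12 libraries allow, and 0.0139 after Benjamini-Hochberg adjustment over 3 region classes. In plain percentage points the mean change was −11.3, with an adjusted exact p of 0.0556.

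At the 0 h only regions over 10 kb from CTCF the change was smaller. CHD8 changed by −0.17, SMARCA4 by −0.50 and SMARCA5 by −0.26 log2 odds, each without overlap between its 0 h and 12 h libraries. The mean was −0.31, with an exact permutation p of 0.00926 and an adjusted p of 0.0139. This call depends on the scale: in plain percentage points the mean change was 0.244, in the other direction, with an adjusted exact p of 0.870, and with CHD4 regions cut to 100 bp on either side of summits it was −0.18 log2 odds with an adjusted exact p of 0.0556.

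The far regions with a motif match seldom held the other remodelers before CTCF was lost. At 0 h, CHD8 had a peak in 1.77% and 1.68% of the 1132 such regions, SMARCA5 in 3.71% and 5.30% and SMARCA4 in 9.81% and 5.12%. In the far 0 h only regions without a match, the 0 h shares were higher, at 12.3% and 8.03% for CHD8, 9.08% and 14.0% for SMARCA5 and 36.6% and 25.3% for SMARCA4. Every library of the 12 thus had its lower share in the regions with a match, also at 12 h. These classes were split after their sequence had been seen, and the difference between them was not tested.

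At the 12 h only regions, the other remodelers rose in relative terms. SMARCA4 had a peak in 38.7% and 26.0% of them at 0 h and in 45.6% and 52.0% at 12 h. SMARCA5 had one in 9.01% and 13.4% at 0 h and in 17.9% and 16.4% at 12 h. CHD8 had one in 15.0% and 8.59% at 0 h and in 17.6% and 10.5% at 12 h, and its libraries overlap. The mean change was 0.35 log2 odds, with an exact permutation p of 0.0185, also 0.0185 after adjustment. It did not pass with CHD4 regions from summits (0.13 log2 odds, adjusted exact p = 0.102) or in plain percentage points (8.22, adjusted exact p = 0.0556).

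**Figure D5:**
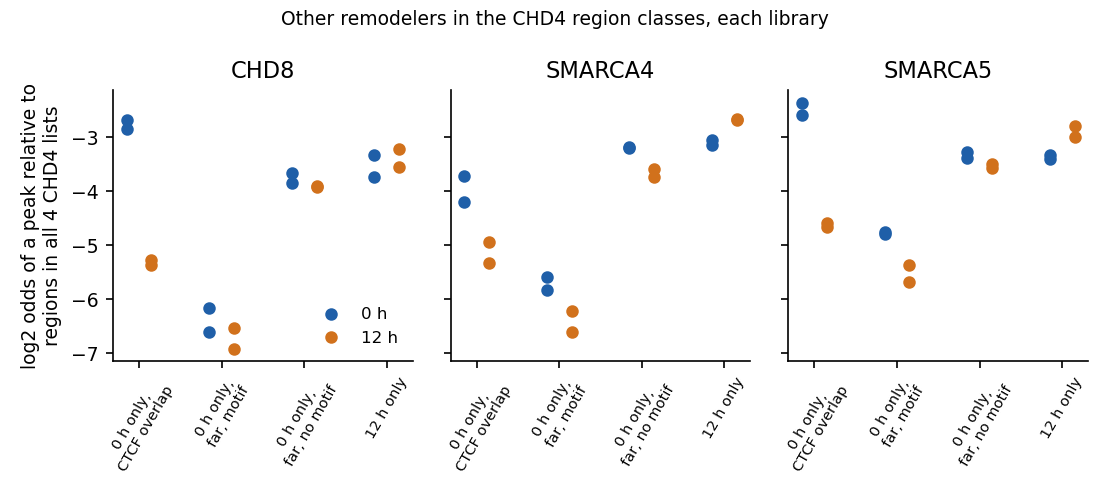
Log2 odds that a CHD4 region of each class holds a peak of CHD8, SMARCA4 or SMARCA5, relative to regions in all 4 CHD4 lists. Each point is a library, blue at 0 h and orange at 12 h; on CTCF peaks the 12 h points lie below the 0 h points for each remodeler, and the far motif class is the lowest at 0 h.

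The counts of both classes rest on asking for both lists of a time. With any 1 list left out, the 0 h only count ran from 13858 to 55228 and the 12 h only count from 7302 to 34184. Without 12 h replicate 1 there were 22752 at 0 h only and 34184 at 12 h only, and without 12 h replicate 2 there were 13858 and 23766, so that 12 h only regions were then the more frequent. Without 0 h replicate 1 the counts were 55228 and 8994, and without 0 h replicate 2 they were 32093 and 7302. The share on CTCF peaks stayed between 12.4% and 29.3% of 0 h only regions and between 0.933% and 1.68% of 12 h only regions in these 4 cases, so that contrast did not rest on any single list.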

How the data were processed

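Peak lists of 19 ChIP-seq samples were read, 1 list per sample. Per the submitters' processing notes, Trim Galore, Bowtie2, MACS2 and deepTools were used with builds mm10 and hg38; roles, versions and controls are not given in the sources used here. Fold enrichments (the ratio of a peak's signal to background), −log10 p and −log10 q values were deposited by the authors. The lowest −log10 q was 1.30. All peaks ended within the chromosomes of GRCm38. Depth is unknown.

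CHD4 peaks were merged where they overlapped by at least 1 bp. The summit of a region was that of its highest-ranked peak. The CTCF model (19 positions) was learnt from 2903 windows with little masking at strong CTCF summits on odd-numbered chromosomes, and a log2 score of at least 8 within 100 bp of the summit on either strand counted as a match. Tests were exact permutation tests over libraries (Python 3.11.15, numpy 2.4.6, pandas 2.3.3, pysam 0.24.0), and functions were tested on simulated lists. The named regions were the 5 of highest mean percentile in each of 4 classes. The named genes were the 5 with the most nearest regions of each kind and, per gene list, up to 4 genes with at least 2 regions of 1 kind, ranked by their regions of both kinds; genes with 1 region of each kind were not counted. Where genes tied for the last places, either all were named or none. Members, lists and tests were chosen with earlier results of these data known. The motif, word and masking measures were added after the data were seen. Alternatives are given in the closing section.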

Additional observations from a re-analysis of the deposited data

How the results depend on the processing

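In this order, the values are the number of 0 h only regions, the number of 12 h only regions, and the percent of each on a CTCF peak. Summits with 100 bp to either side gave 14444, 5807, 27.5% and 2.20%. A −log10 q of at least 5 gave 5419, 886, 39.5% and 2.03%. Lists of equal length (104991 peaks) gave 6957, 3405, 37.7% and 1.56%. Asking for no peak of the other time within 1 kb gave 7390, 1676, 35.5% and 1.01%. The upper 50% of CTCF peaks gave 18.8% and 0.577%. Windows that are not soft-masked, an alternative chosen after seeing the data, gave 6466, 2941, 38.0% and 1.26%. Leaving out 1 CHD4 list gave 13858 to 55228, 7302 to 34184, 12.4% to 29.3% and 0.933% to 1.68%. The 0 h only share on CTCF was the higher in every one of these.

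The change in the share of peaks on CTCF peaks kept its direction under all 8 alternatives, from −2.39 to −6.88 without 1 list, and that near start sites ran from −0.730 (without 12 h replicate 2) to 4.28. Replicate numbers share only a number and the width of peaks: over 47105 shared regions the deviations of same-numbered lists correlated at 0.0592. With a replicate block the exact sign-flip p was 0.500 for both shares, the smallest that 2 pairs allow. For each of the 3 occupancy changes of −1.96, −0.31 and 0.35 it was 0.0312 (adjusted 0.0312). This is also the smallest value possible there, and these changes kept their calls.

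In plain percentage points the occupancy changes were −11.3, 0.244 and 8.22, with adjusted exact p of 0.0556, 0.870 and 0.0556. With CHD4 regions from summits they were −1.65, −0.18 and 0.13 log2 odds, with adjusted exact p of 0.0278, 0.0556 and 0.102. Without each library in turn they ran from −2.04 to −1.88, from −0.34 to −0.28 and from 0.28 to 0.42, and all kept their calls.

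Loss off CTCF peaks, with and without a motif match, was also recomputed after seeing the data. It was 51.1% and 12.1% at a score of 12, 57.2% and 14.0% in masked windows only, 23.0% and 8.80% in the others, 48.5% and 8.37% at a −log10 q of at least 5, 45.8% and 6.92% with equal lists, and 35.8% and 5.93% with no 12 h peak within 1 kb. Leaving out 1 list gave 53.1% to 63.0% with a match and 13.7% to 41.6% without; by list, the pairs were 60.4% and 41.6% without 0 h replicate 1, 63.0% and 25.5% without 0 h replicate 2, 61.1% and 25.8% without 12 h replicate 1, and 53.1% and 13.7% without 12 h replicate 2. The cause of these shifts was not tested. Depth, which the lists do not give, limits every call of a missing peak.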

Other observations

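Strong and weak regions were distributed differently over the classes. A mean percentile over 80 was reached by 688 of the 3632 CHD4 0 h only regions on CTCF peaks, by 383 of the 4570 over 10 kb away, by 17 of the 3940 at 12 h only off CTCF and by 1 of the 43 at 12 h only on CTCF. Base composition of the summit windows differed less between the changing classes than from the shared regions. The mean GC share was 49.6% in 0 h only, 50.7% in 12 h only and 54.8% in regions in all 4 lists, with a mean of 3.19, 3.32 and 6.93 CpG per window.

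Regions on CTCF peaks that kept CHD4 in all 4 lists also lost rank away from promoters: their median percentile was 68.7 and 69.2 in the 0 h lists and 51.2 and 49.9 in the 12 h lists. At the 942 shared regions where CTCF kept a listed 12 h peak, it was 71.2 and 73.8 at 0 h and 59.5 and 56.7 at 12 h. The other remodelers moved the same way at the 5909 shared regions on CTCF, by −0.87 log2 odds for CHD8, −0.24 for SMARCA4 and −0.55 for SMARCA5, with no test made. Of the 0 h CTCF summits themselves, 19.6% lie in soft-masked windows.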
